A study of Daphnia magna with 16 samples.

Results

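Chitotriosidase-1 is followed here through 1 array probe, CUST_33489_PI429715507, in single females of 4 clones of the water flea Daphnia magna. It is 1 of 51424 gene probes on the array and 1 of the 17286 that passed the filter on dim signals. It was taken up because its fluorescence had been seen to be low in the mono-allelic mutant alone on these same 16 arrays. Its differences between clones are therefore given as a description, with no test. The name chitotriosidase-1 and the gene identifier Dapma7bEVm014956 come from the annotation the study supplied for its probes. That annotation pairs 3 more probes with the same identifier and gives them other chitinase names (acidic chitinase, chitinase 1 and chitinase 10 precursor), so which chitinase of the family the probes report is not settled here. Probe sequences were not used here, and signal from related chitinase genes could not be examined.

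The arrays hold total RNA of whole single females, 4 animals per clone. T13 (+/-) carries a CRISPR-Cas9 mutation in 1 allele of TRH and is the clone called T+ by the study. T16 (-/-) and T17 (-/-) carry mutations in both alleles. F (+/+) is the wild type clone from which the mutants were made. TRH encodes tryptophan hydroxylase, the enzyme that starts serotonin synthesis. The +/- and +/+ genotypes are 1 clonal line each, so genotype and line cannot be told apart for T13 and F. The -/- genotype has both T16 and T17. The labels give an age of 5 days in one field and 4 days in another, for every animal, while the methods describe adult females taken after a reproduction trial and freed of their broods. Moult stage is not given in the sources used here. In whole bodies, fewer cells that make a transcript and less of it per cell cannot be told apart. The files do not say which probe reports TRH, so the targeted gene was not examined.

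Chitinases cut chitin, the polymer of N-acetylglucosamine that gives the arthropod cuticle its strength. Arthropods use them to dissolve the old cuticle at each moult and, in the gut, to remodel the chitin-containing peritrophic membrane. Chitotriosidase is the human name of a secreted chitinase of glycoside hydrolase family 18, made by macrophages, and homologous arthropod enzymes are named after it. As a crustacean that keeps moulting through adult life, Daphnia rebuilds its cuticle once per brood cycle.

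The chitotriosidase-1 probe gave its 4 lowest values in the 4 T13 females. On the log2 scale after quantile normalization, which gives every array the same distribution, the level was 6.50, 7.11, 6.47 and 6.57 in T13 replicates 3, 5, 7 and 9. In T16 it was 8.77, 8.24, 8.57 and 8.23, and in T17 8.71, 7.35, 7.55 and 8.10, in the same order of replicates. In F it was 8.40, 8.50, 8.44 and 8.38. The T13 animals thus lay below the other 12 without overlap, but the edge was narrow. The highest T13 animal (replicate 5, 7.11) and the lowest of the others (T17 replicate 5, 7.35) were 0.24 apart.

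**Figure D1:**
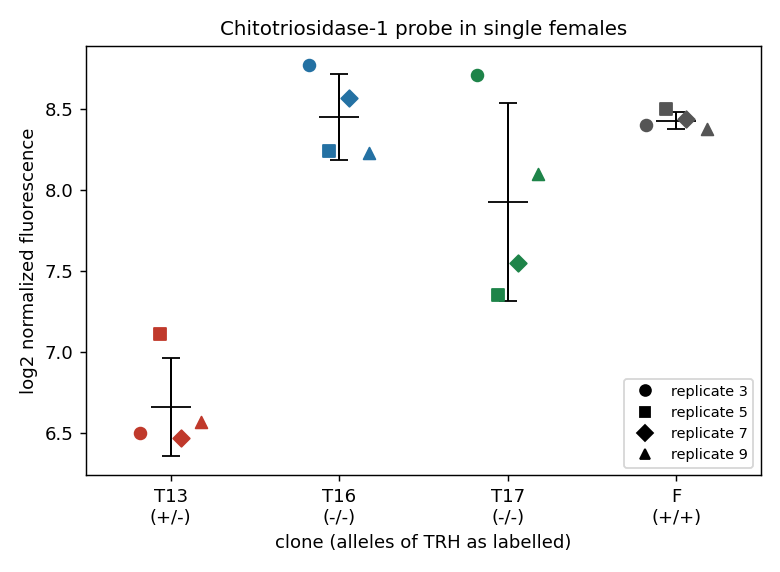
Level of the chitotriosidase-1 probe (log2 normalized fluorescence, y axis; the axis does not start at 0) in each female of clones T13, T16, T17 and F, with horizontal marks at the clone means and bars of 1 SD (n = 4 each). The T13 points lie between 6.47 and 7.11, and the lowest point of another clone is T17 replicate 5 at 7.35.

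By clone, the probe averaged 6.66 ± 0.30 in T13, 8.45 ± 0.27 in T16, 7.93 ± 0.61 in T17 and 8.43 ± 0.06 in F (log2, SD, n = 4 each). T13 differed by -1.79 ± 0.25 from T16, by -1.27 ± 0.25 from T17 and by -1.77 ± 0.25 from F (log2 difference ± SE, from one limma model over the 16 arrays). These are 3.46-fold, 2.4-fold and 3.40-fold lower levels. T16 and F lay close together, with T16 above F by 0.02, well within the spread of T16, and their order turned round under some other settings, among them leaving out T16 replicate 3. T17 lay below F by 0.50 and its animals overlapped those of T16. From low to high, the clone means were those of T13, T17 and then F and T16 together, and only the step above T13 separates groups that do not overlap.

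The spread between animals was not the same in the 4 clones. From the lowest to the highest animal it was 0.645 in T13, 0.545 in T16, 1.36 in T17 and 0.127 in F (log2). T17 was the uneven clone. Its replicates 5 and 7 averaged 7.45, while replicates 3 and 9 averaged 8.41, a level like that of F. The SD within clones, pooled, was 0.367, close to the median of 0.357 over all tested probes, so the probe was not unusually noisy.

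The processed signals behind these values were small in T13. Before normalization between arrays they were 76.9, 134, 73.2 and 86.9 fluorescence units in T13, with error estimates from the scanner software of 13.95 to 19.63 units. They ranged over 333 to 459 units in T16, 147 to 402 in T17 and 265 to 449 in F. Relative to the negative controls of the same array (95th percentile), the T13 spots were 1.85 to 3.25 times as bright. The same ratio was 5.68 to 11.5 in T16, 3.73 to 12.7 in T17 and 3.48 to 9.38 in F. The software marked the spot as well above background on 3 of the 4 T13 arrays (not on replicate 9) and on all 12 others. The T13 level was thus near the limit of detection but measured. The probe has 1 spot per array, and it was neither saturated nor marked as an outlier on any of them.

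The arrays were on 2 slides, with 2 T13 animals on each, and the low T13 level was seen on both. On slide 1, T13 differed by -1.70 from T16, by -1.19 from T17 and by -1.92 from F, with 2 animals per clone. On slide 2 the differences were -1.88 from T16, -1.34 from T17 and -1.58 from F, with 1 F animal. The file of F replicate 7 names no slide, and that array is left out of these values. It also had the brightest negative controls, with a 95th percentile of 129 units against 31.8 to 58.6 on the other 15 arrays, and its chitotriosidase-1 level of 8.44 lay within the range of the other F animals.

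The 3 other probes of the identifier broadly followed the course of chitotriosidase-1 from animal to animal, CUST_23637 most closely. They too were chosen with the T13 difference in view, so their clone differences are a description. CUST_23637 was at 5.86, 6.67, 5.82 and 6.06 in T13. It was at 8.15, 7.68, 7.87 and 7.61 in T16, at 8.16, 6.62, 6.87 and 7.51 in T17, and at 7.81, 7.67, 8.01 and 7.70 in F. T13 replicate 5 (6.67) was just above T17 replicate 5 (6.62), so T13 and T17 touched on this probe. Of the T13 arrays, CUST_23637 was well above background on that of replicate 5 alone, so its T13 mean rests largely on dim signals. Its T13 mean differed by -1.72 ± 0.29 from T16, by -1.19 ± 0.29 from T17 and by -1.69 ± 0.29 from F (log2 difference ± SE). CUST_101191 was at 7.25, 8.10, 7.73 and 7.71 in T13, and ranged over 8.88 to 9.37 in T16, 8.04 to 9.30 in T17 and 8.87 to 9.07 in F. T13 and T17 again touched, through replicate 5 of each clone. The T13 mean of CUST_101191 differed by -1.35 ± 0.25 from T16, by -0.88 ± 0.25 from T17 and by -1.29 ± 0.25 from F.

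The dimmest of the 4, CUST_23641, was not well above background on any T13 array and on 1 of 4 T17 arrays only. Its measured values were 4.01, 5.97, 5.07 and 5.08 in T13, against 6.68 to 7.10 in T16, 5.77 to 7.13 in T17 and 6.47 to 6.88 in F. T13 has only a bound here. CUST_23641 was at least 2.33-fold lower in T13 than in T16, where all 4 arrays measured it. The bound sets the mean of the measured clone against the dimmest signal still well above background on each T13 array, or the probe's own signal where that is higher. On all 3 of these probes T17 replicate 5 lay at or below T13 replicate 5, and T13 was apart from the T16 and F animals. Of the 4 probes, chitotriosidase-1 alone had its T13 animals below all others.

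**Figure D2:**
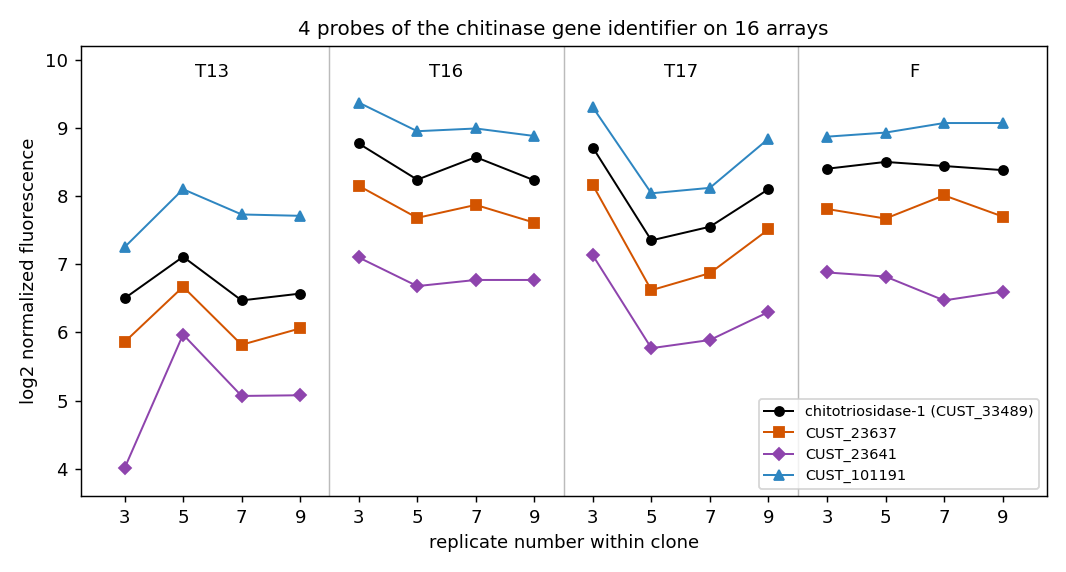
Log2 normalized fluorescence (y axis) of the chitotriosidase-1 probe and the 3 other probes of Dapma7bEVm014956 in each female, with replicate numbers on the x axis and the clones T13, T16, T17 and F from left to right; lines join the animals of 1 clone for each probe and carry no order in time. All 4 lines are low in T13, with replicate 5 the highest T13 animal, and dip in T17 at replicates 5 and 7.

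How far these probes agree beyond the clone means was not part of the choice and was tested. This test was added to a plan that had these probes described with no p-value. With each clone's mean taken out, the correlation with chitotriosidase-1 over the 16 animals was r = 0.970 for CUST_23637, 0.918 for CUST_101191 and 0.789 for CUST_23641. An exact two-sided permutation test within clones gave p = 0.00025, 0.00104 and 0.00133 for the 3, or 0.000751, 0.00133 and 0.00133 after Benjamini-Hochberg adjustment. Spearman's rho on ranks within clones was 0.7 for CUST_23637 (adjusted exact permutation p = 0.0448), 0.5 for CUST_101191 (0.101) and 0.55 for CUST_23641 (0.101), so for the last 2 the agreement in rank did not pass. Without T17 replicates 3 and 5, the animals farthest from the middle, r was 0.931, 0.828 and 0.688 in the same order of probes (n = 14). The probes report the same labelled RNA of each animal, so the agreement is between probes and not between separate samplings of the clones.

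Against all tested probes, the T13 difference of chitotriosidase-1 was large but not extreme. Counted from the most negative, its difference ranked 747 of 17286 against T16, 194 against T17 and 474 against F. With limma, at adjusted p below 0.05 and 1.5-fold or more, 5 probes were lower in T13 than in T16 (0.0289% of those tested), 2 were lower than in T17 (0.0116%) and 223 were lower than in F (1.29%). The limits gave also 3 probes higher in T13 than in T16 (0.0174%), 3 higher than in T17 (0.0174%) and 55 higher than in F (0.318%). These contrasts share the T13 animals, and chitotriosidase-1 had been chosen from them, so nothing is read from its place among these counts. Of the 5 probes lower than in T16, 2 had T13 animals overlapping those of F, and these carry no gene name.

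The count against T16 rested on 1 T13 animal. T13 replicate 5 lay apart from its clone on the first principal component of all tested probes, which held 60.3% of the variance. Its score was 89.75, while the other T13 animals lay between -102.7 and -98.38. T16 animals scored 78.95 to 106.9, T17 replicate 5 scored 95.03 with the other T17 animals between -103.5 and -61.41, and F animals scored -49.05 to 53.79. T13 replicate 5 was also the T13 animal with the highest level of all 4 chitinase probes. Without it, 1319 probes were called lower in T13 than in T16 and 315 lower than in F, and the chitotriosidase-1 difference was -1.94 from T16 and -1.92 from F. The replicate 5 arrays of T13, T16 and T17 were all at position 4 of a slide. The 3 F arrays with a known slide were all at position 1, which no T13 or T16 array shared, so position and clone cannot be told apart for those differences from F.

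The pattern of chitotriosidase-1, with all T13 animals below all 12 others and a mean at least 1.5-fold below that of each other clone, was shared by 6 more probes. The 7 are 0.0405% of those tested. The mirror image, T13 above all others, was met by 15 probes (0.0868%). With no limit on size, 17 probes had T13 below the 12 others (0.0983%) and 27 had it above (0.156%). Against single clones the T13 animals were below without overlap for 1070 probes in T16 (6.19%), 340 in T17 (1.97%) and 584 in F (3.38%). The step from T17 was thus the one that fewest probes made. Without T13 replicate 5 the low pattern was met by 123 probes, and all 4 chitinase probes were then among them. Without T17 replicate 5 it was met by 13, and 3 of the 4 were among them, all but CUST_23641.

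The clearest partners were a pair of probes of 1 other identifier, Dapma7bEVm015932, for which no gene name was supplied. CUST_83287 was at 5.38, 5.31, 5.21 and 5.06 in T13. It was at 7.14, 6.84, 6.76 and 6.99 in T16, at 6.92, 6.87, 6.57 and 6.76 in T17, and at 7.04, 6.93, 6.10 and 6.50 in F. The gap between T13 and the nearest other animal was 0.72, wider than that of chitotriosidase-1. Its differences of -1.69 from T16, -1.54 from T17 and -1.40 from F passed limma's test over all probes (adjusted p = 0.0013, 0.0078 and 0.0015). The probe was named for this same pattern and was bright enough for the filter on dim signals mainly in the other clones. These p-values are therefore no separate support for the pattern. CUST_83287 was not well above background on any T13 array, so that its level in T13 was at least 2.80-fold lower than in T16 and at least 2.52-fold lower than in T17. In F it was well above background on 3 of 4 arrays, and no bound was set there. The call against T17 was lost under 2 of 29 alternative settings. These left out T13 replicate 9, or both T13 replicate 5 and T17 replicate 5.

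CUST_83289, the companion probe, was at 5.02, 5.17, 5.01 and 4.69 in T13. It ranged over 6.17 to 6.53 in T16, 5.81 to 6.25 in T17 and 5.70 to 6.24 in F. The gap was 0.54, and the differences were -1.45 from T16, -1.10 from T17 and -1.02 from F (limma, adjusted p = 0.0013, 0.0294 and 0.0042). CUST_83289 was named for the same pattern, so its p-values are no separate support either. It too was not well above background in T13, at least 2.01-fold lower than in T16. In T17 and in F it was well above background on only 2 of 4 arrays each. Its differences from these clones thus rest in part on dim signals on both sides and have no bound. The call against T17 was lost under 16 of 29 alternative settings, and those against T16 and F under 1, normexp background correction, where the differences were -0.56 and -0.38. These 2 were the only probes called lower in T13 than in each of the 3 other clones.

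The remaining 4 probes of the pattern have no gene name either and had narrow gaps of 0.05 to 0.19. Each passed the test in at most 1 of the 3 comparisons, which was that with F.

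**Figure D3:**
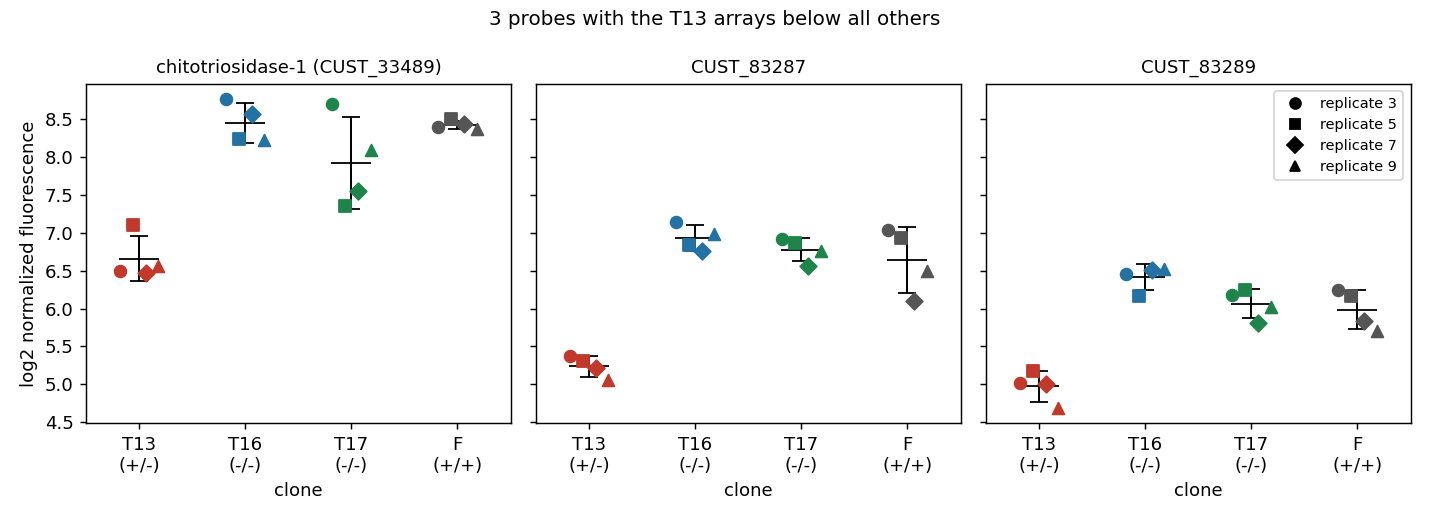
Log2 normalized fluorescence (y axis; the axis does not start at 0) of chitotriosidase-1 and of CUST_83287 and CUST_83289 in each female of T13, T16, T17 and F, with means and bars of 1 SD (n = 4 each). T13 lies below every other animal in each panel, by 0.24, 0.72 and 0.54, and only in the chitotriosidase-1 panel is T17 drawn out towards T13.

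Most of the probes most like chitotriosidase-1 over the 16 arrays were also like it within clones, and the pair of Dapma7bEVm015932 was not. Among the 17269 other tested probes that had values for all 16 arrays, the median Pearson correlation with chitotriosidase-1 was 0.0105, and 18 probes were above 0.8 (n = 16 arrays of 4 clones, a description with no p). The 10 highest were the 3 chitinase companions, at 0.992, 0.975 and 0.941, then 5 probes without a gene name at 0.859 to 0.903, then CUST_83289 at 0.857 and CUST_83287 at 0.853. The pair of Dapma7bEVm015932 was like chitotriosidase-1 through the clone means. With the clone means taken out, r was 0.27 for CUST_83289 and 0.21 for CUST_83287. The 5 other probes kept r of 0.674 to 0.883 with the clone means taken out, but none met the T13-only pattern. The correlation that chose them includes likeness within clones, so these values too are a description. Their T13 differences were -2.01 to -0.58 and are a description, since likeness to a probe that was low in T13 had chosen them. The T17 animals that were low for chitotriosidase-1 were thus low for those 5 in part, and not for the pair of Dapma7bEVm015932, where T17 spanned 6.57 to 6.92 on CUST_83287.

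In the opposite direction, the most negative correlation was that of CUST_33104 (Dapma7bEVm011064, no gene name), at r = -0.842. It was at 8.39, 6.86, 8.01 and 8.17 in T13, against 3.65 to 3.69 in T16, 3.63 to 4.32 in T17 and 3.65 to 5.74 in F. It was well above background on all T13 arrays and on none of the others, and was at least 6.64-fold higher in T13 than in T16, at least 7.29-fold higher than in T17 and at least 4.59-fold higher than in F. These are given with no test, since the probe passed the filter on dim signals through the T13 arrays, where it was high. T13 replicate 5 was the lowest T13 animal here and the highest for chitotriosidase-1. CUST_120878, also with no gene name, was at 6.25, 6.37, 5.85 and 6.09 in T13, against 3.89 to 4.82 in T16, 3.83 to 4.58 in T17 and 3.78 to 5.19 in F. Its measured differences were 1.70 from T16, 1.89 from T17 and 1.65 from F, again with no test, since this probe too passed the filter through the T13 arrays. CUST_120878 was well above background on 1 T13 array and on none of the others.

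Among other genes of chitin and amino sugar metabolism, the 3 probes that limma called lower in T13 than in F were those of chitin-binding cuticular proteins. The list holds 8 probes that the study had put under such terms, and since the study had picked them on these arrays, its counts against F are not independent evidence. The filter on dim signals was passed by 6 of the 8. None of the 6 met the T13-only pattern, which 0.0405% of all tested probes met. Against T16, limma called none of the 6, beside 0.0289% lower and 0.0174% higher of all tested probes. At an unadjusted p below 0.05, 0 were lower and 2 higher, beside 1891 and 1681 of all 17286 probes. The median difference was 0.18 beside -0.06 over all tested probes. Against T17, limma called none, beside 0.0116% lower and 0.0174% higher of all tested probes. At an unadjusted p below 0.05, 1 was lower and 0 higher, beside 261 and 288 of all probes. The median difference was -0.51 beside -0.02. With shares this low, 0 of 6 says nothing about the list, and these counts are too small to set it apart from the other probes. Dunnett's test also called 0 of them in both comparisons. Of all probes it called 14 lower than in T16 and 8 lower than in T17. Against F, limma called 3 lower and 0 higher, beside 1.29% and 0.318% of all tested probes. At an unadjusted p below 0.05 it was 5 and 0, beside 823 and 1301 of all probes. The median difference was -2.20 beside 0.06. Of the 3, CUST_18986 and CUST_87769 passed the filter on dim signals through the F arrays, where they were high, so nothing is read from this count. Dunnett's test called 1 of the 6 lower than in F, and 65 of all probes. Correlations with chitotriosidase-1 over the 16 arrays ran between -0.48 and 0.58.

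The 3 probes that limma called lower in T13 than in F report cuticular proteins analogous to peritrophins, which bind chitin. CUST_18986 (type 1-F) was at 3.77 to 3.86 in T13, not above background, against 8.10 to 10.15 in F, and was at least 14-fold lower in T13. CUST_87769 (type 3-D2) was at 3.68 to 4.45 in T13 and 6.62 to 8.28 in F, and was at least 4.79-fold lower in T13. Both are given with no test, since they passed the filter on dim signals through the F arrays, where they were high. CUST_80943 (type 1-E) was at 5.57 to 8.13 in T13 and 9.89 to 11.77 in F, a measured difference of -3.60. It too is given with no test, since the study had picked the list on these arrays. Unlike chitotriosidase-1, all 3 had T16 animals within or below the T13 range.

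The enzymes on the list differed from chitotriosidase-1 as well. Chitin deacetylase (CUST_100299), which removes acetyl groups from chitin, was at 7.62 to 8.96 in T13, against 6.36 to 6.94 in T16, 7.18 to 8.95 in T17 and 7.95 to 8.69 in F. Its difference of 1.81 from T16 was not called (limma, adjusted p = 0.13). Oscillin (CUST_25449), a glucosamine-6-phosphate isomerase, and amidohydrolase domain containing 2 (CUST_51858), which deacetylates N-acetylglucosamine-6-phosphate, differed between T13 and F by -0.80 and -0.73, and neither was called (adjusted p = 0.0959 and 0.205). A second chitin deacetylase and a peritrophin-1 precursor were too dim to be tested.

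**Figure D4:**
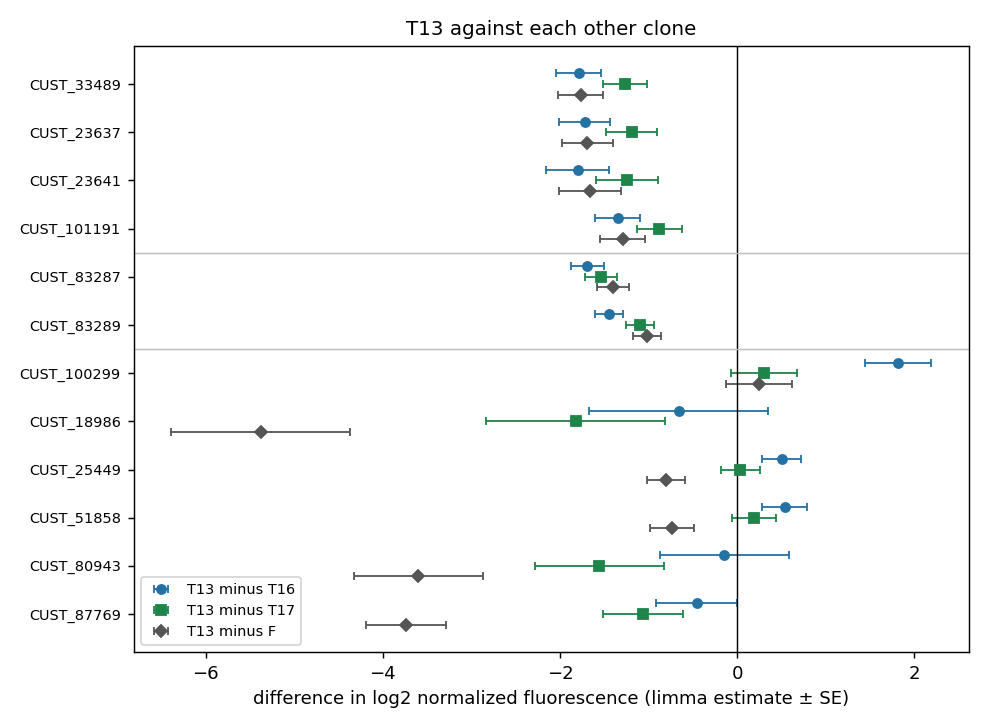
Difference in log2 normalized fluorescence (x axis, limma estimate with bars of 1 SE) between T13 and T16, T17 or F, for chitotriosidase-1 (CUST_33489) and its 3 companions (top), the pair of Dapma7bEVm015932 (middle) and 6 chitin list probes (bottom). In the upper groups all 3 differences are negative, and in the bottom group the differences from T16 lie between -0.66 and 1.81.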

How the data were processed

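RNA of 16 single Daphnia magna females was measured on one-colour (Cy3) Agilent arrays. The authors deposited the spot intensity values written by Agilent Feature Extraction (10.5.1.1 in the file headers, 10.5 in the submitters' processing notes), including a processed signal corrected for background. They also deposited normalized log2 values, which were found to be quantile normalized log2 processed signals minus each probe's median, and differed by at most 0.00417 from the same computed here for chitotriosidase-1.

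Processed signals were floored at 1, spots marked as outliers were set to missing, log2 values of repeated spots were averaged, and arrays were quantile normalized. Probes above the 95th percentile of 2840 negative control spots on at least 4 arrays were tested. Per array, 9918 to 14694 gene spots were well above background. Precision is limited by the number of arrays. limma 3.58.1 (R 4.3.3) fitted 1 model to the 4 clones, two-sided, with Benjamini-Hochberg adjustment over 17286 probes. A call needed adjusted p below 0.05 and 1.5-fold or more. The animals are the replicates, and the methods describe a trial in which each female was kept on its own. The procedure was tested on simulated data.

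The probe, its companions and the lists were chosen with earlier results of these data known. Named are the probes of Dapma7bEVm014956, the 10 most positive and 3 most negative correlations, up to 10 low (7 met the pattern) and 3 high T13-only probes with the widest gap, and the chitin list. Of probes without a gene name, only 2 low and 2 high ones are printed. Alternatives were 75th percentile scaling, normexp (offset 50), the deposited values, no filter or a stricter one, outlier spots kept, weights per array, robust estimation with a variance trend, models of 2 clones, fold limits, ANOVA with Dunnett's test (mvtnorm 1.3.3), a block for slide or for replicate, and leaving out each animal.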

Additional observations from a re-analysis of the deposited data

Results flagged for a closer look

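In 56 groups of 4 animals (14 named probes in 4 clones), 1 animal lay apart from the other 3 by more than Dixon's 95% limit in 7 groups. Chance marks about 1 in 20. For chitotriosidase-1 this was T13 replicate 5, at 7.11 with the nearest T13 animal at 6.57. For CUST_33104 it was T16 replicate 9 (3.69, next 3.65) and T17 replicate 5 (4.32, next 3.67), all not well above background. For CUST_18986 it was T16 replicate 7 (6.50, next 3.84) and T17 replicate 3 (9.44, next 4.50). For CUST_80943 it was T17 replicate 3 (10.39, next 8.34), the animal that was also the highest of T17 for chitotriosidase-1. For CUST_87769 it was T13 replicate 3 (4.45, next 3.77), not well above background.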

How the results depend on the processing

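The T13 differences of chitotriosidase-1, its companions, the chitin list median and the 4 unnamed probes printed kept their direction under the alternatives run for them. Within-clone correlations and the list medians against single clones were not rerun. The order of T16 and F turned round with normexp, with the slide as a block without F replicate 7 (-1.79 from T16, -1.81 from F) and without T16 replicate 3 (-1.68 and -1.77) or 7 (-1.75 and -1.77). The chitotriosidase-1 difference moved by more than the spread between animals only with normexp background correction, to -1.28 from T16, -0.87 from T17 and -1.30 from F, with a median T13 difference of -0.92 for its companions, 5 T13-high probes and 1 probe called in all 3 comparisons. Normexp also took CUST_83289 below 1.5-fold (-0.56 from T16, -0.36 from T17, -0.38 from F), and CUST_120878 against F (0.49). Leaving out 1 animal at a time gave -1.94 to -1.68 against T16, -1.46 to -1.01 against T17 and -1.92 to -1.70 against F, -1.72 to -1.23 for the companions and -1.04 to -0.58 for the chitin list (median differences of T13 from the mean of the other clones).

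Counts were less stable. Leaving out 1 animal gave 3 to 1319 probes lower than in T16, 0 to 3 lower than in T17, 131 (without T13 replicate 7) to 315 (without T13 replicate 5) lower than in F, 6 to 123 T13-low, 11 to 180 T13-high and 0 to 2 called in all 3, with 1319, 123 and 180 all without T13 replicate 5. Without both T13 replicate 5 and T17 replicate 5 (added after seeing the data), 1661 were lower than in T16, 0 than in T17 and 622 than in F, with 89 T13-low, 134 T13-high and 0 called in all 3. Array weights gave 2013, 11 and 571 against T16, T17 and F, and ANOVA with Dunnett's test 14, 8 and 65. Models of 2 clones gave 105 against T16, 1 against T17 and 1 in all 3. No filter gave 147 against F, and the variance trend 1 in all 3. Scaling to the 75th percentile gave 26 T13-high. A 2-fold limit gave 7 T13-high, and no fold limit 17 T13-low and 27 T13-high. With the slide as a block and F replicate 7 left out, 1 was lower than in T17, 12 were T13-low and 1 was called in all 3. With that array placed at the free position of slide 2 (added after seeing the data) the 3 counts were 1, 13 and 1. No source says that a replicate number pairs animals of different clones. Over 24 pairs with the same number, deviations correlated at -0.346 to 0.795 (mean 0.167), over 0.1 in 14, so pairing was not taken as given. The replicate block gave 1 probe lower than in T17, 26 T13-low, 23 T13-high and 1 called in all 3. The cause of these changes was not tested.

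Dim signal limits T13: CUST_23641, CUST_83287 and CUST_83289 have only a bound there. CUST_23637 was well above background on 1 of 4 T13 arrays.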
